A study of Mus musculus with 6 samples.

Results

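The small nuclear RNAs (snRNAs) of the male mouse duodenum were taken as all rows of the short-RNA count table whose Ensembl transcript identifier carries the transcript type snRNA in GENCODE M21. This gave 150 of 1630 rows. The table holds 3 *Polr3B*-/+ males, heterozygous for Polr3b em7(IMPC)Tcp, a frameshift insertion made with Cas9 D10A in a subunit of RNA polymerase III (Pol III), and 3 wild-type C57BL/6N males. All 6 were fasted overnight before the superior duodenum was flushed and frozen, and their age was not given in the sources used here. The heterozygous and wild-type mice came from separate matings, so that genotype and litter cannot be told apart. Short RNA was size selected and demethylated before sequencing.

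snRNAs are the RNA cores of the particles that remove introns. U1 recognises the 5′ splice site and U2 the branch point, U5 holds the exons together, and U6, which arrives paired to U4, enters the active site. A rarer class of introns is removed by U11, U12, U4atac and U6atac together with U5, while U7 acts in another process, the 3′ end processing of histone mRNAs. U6 and U6atac are made by Pol III from promoters that lie upstream of the gene, and the other snRNAs are made by Pol II and assembled on a ring of Sm proteins. The comparison therefore asks whether the Pol III product differs between genotypes while the Pol II products of the same particles serve as its background.

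By gene name or by sequence likeness to a named snRNA, 61 rows were U6, 30 were U1, 8 were U2, 7 were U5, 4 were U11, 2 were U12 and 1 was U7. The remaining 37 were like no named snRNA at 80% identity over 80% of their length. GENCODE M21 names no U4, U4atac or U6atac transcript among the sequences used. A further 313 Ensembl rows had no match in GENCODE M21 and held 30.6% to 58.3% of the counts of a library, so that an snRNA among them is not counted here. The sequences below are from GENCODE M21 (GRCm38), given as DNA, with the number of genes of identical sequence stated where it exceeds 1.

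The most abundant row was a U1 copy, Gm23804 (chr12:54714218-54714381, plus strand, intergenic), whose sequence is shared by 7 annotated genes including Rnu1a1, so that its counts cannot be given to 1 of them. The main U2 row was Rnu2-10 (chr11:101658238-101658428, plus strand, intergenic), shared by 4 genes. Capitals mark the 5′ end of U1 that pairs with the 5′ splice site, and the U2 bases that pair with the branch point.
Gm23804: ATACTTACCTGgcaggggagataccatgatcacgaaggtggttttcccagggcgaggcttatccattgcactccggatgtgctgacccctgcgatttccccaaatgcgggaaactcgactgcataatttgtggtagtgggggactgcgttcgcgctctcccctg
Rnu2-10: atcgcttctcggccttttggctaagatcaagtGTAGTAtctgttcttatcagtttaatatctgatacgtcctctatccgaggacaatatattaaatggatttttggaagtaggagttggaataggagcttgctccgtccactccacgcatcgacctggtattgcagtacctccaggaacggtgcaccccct

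The libraries held 2114055 to 6037849 estimated counts, of which snRNAs took 7.46%, 3.93% and 5.69% in *Polr3B*-/+ and 3.48%, 6.24% and 6.69% in wild-type mice. The widths of the 95% Wilson intervals of these shares, which cover counting error only, were far below the differences between mice. The ranges of the genotypes overlapped, with means of 5.69% ± 1.77 and 5.47% ± 1.74 (SD, n = 3 each), and the lowest share of each genotype was in its smallest library. Library composition varied within both genotypes. The single most abundant transcript took 16.7% to 47.1% of counts in *Polr3B*-/+ males and 20.7% to 47.7% in wild-type males, and mitochondrial tRNAs took 7.11% to 12% and 9.55% to 28.8%. Precursors of 9 of 9 listed epithelial microRNAs had counts, with summed levels of 6.00 to 8.71 CPM (counts in each 1000000) in *Polr3B*-/+ and 3.83 to 20.6 CPM in wild-type males. Of the other lists, 2 of 7 smooth muscle, 3 of 7 blood and immune and 1 of 4 pancreatic precursors had counts, at summed levels of at most 5.15 CPM in any mouse, and the liver precursor and 6 neuronal precursors had no row. The part of depth, composition or cell make-up in the results below was not tested. In bulk tissue, fewer cells of a type and less RNA per cell cannot be told apart.

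Per length, the 6 families with a tested row (all but U11, which had counts above 2 in only 2 mice and is described below) fell into the same order in every mouse, and no 2 neighbours among these 6 overlapped. With copies summed, U1 stood at 217786 to 257845 CPM per kilobase in *Polr3B*-/+ males and at 174318 to 326458 in wild-type males. U5 followed with 57491 to 73288 and 59477 to 98492 CPM per kilobase. U2 had 18961 to 33316 in *Polr3B*-/+ and 16813 to 29106 CPM per kilobase in wild-type males. Of the less abundant families, U7 had 5963 to 7621 and 7258 to 12392 CPM per kilobase, and U12, of the minor spliceosome, had 3531 to 4679 and 4140 to 5467. Of these 6 the Pol III product U6 was lowest, at 491 to 1075 and 715 to 867 CPM per kilobase, a level that rests on variant copies alone as described below. Within each of these 6 families the ranges of the genotypes overlapped.

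**Figure D1:**
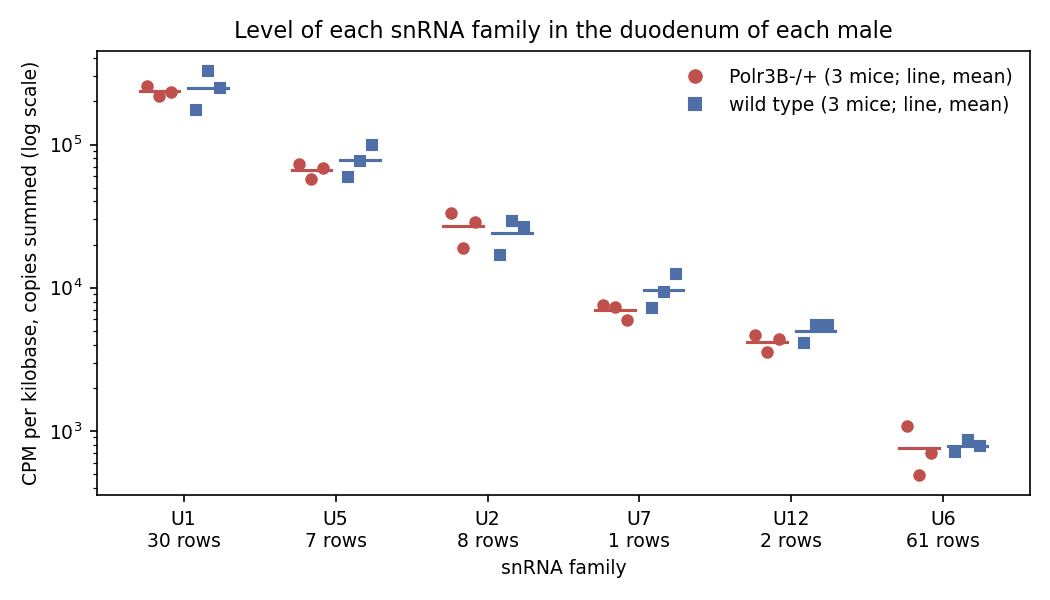
Level of each snRNA family in each male, as CPM per kilobase with copies summed on a log axis (circles, *Polr3B*-/+; squares, wild type; lines, means of 3 mice). The 6 families shown, which leave out U11, keep 1 order, from U1 at 174318 or more to U6 at 1075 or less, and the genotypes overlap within each of them.

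No snRNA differed between *Polr3B*-/+ and wild-type males at 10% FDR. In the edgeR quasi-likelihood test over the whole table, 24 of the 150 snRNA rows passed the filter on low counts, and 0 of these 24 were called, against 0% of all 560 transcripts tested. At an unadjusted p under 0.05, 0 of the 24 passed against 3.57% of all transcripts. That count was 1 with DESeq2 size factors, 2 with TMM over transcripts other than tRNAs, and 5 of 150 when every row with a count was tested. The shares of all transcripts under these settings are not given, so these counts are not read as a result about snRNAs. By DESeq2, which called 0.186% of all transcripts, and by limma voom, 0 snRNAs passed 10% FDR. The smallest adjusted p among the 24 was 0.999. The log2 fold change (*Polr3B*-/+ minus wild type throughout) was below 0 for 20 of the 24, against 55.4% of all transcripts, with a median of -0.27 beside -0.05 over all transcripts. Scaling by library totals alone moved the median of all transcripts to 0.09 and left 16 of the 24 below 0. The standard errors of the 24 ran from 0.29 to 0.75, and differences smaller than these were not detectable with 3 mice a group. Larger differences were also not called, such as -0.92 ± 0.44 (SE) for Gm25189 and 1.20 ± 0.63 for Gm23924. The 24 rows held 98.97% to 99.96% of the snRNA counts of a library.

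With the copies of a family summed before the fit, 0 of the 6 families tested were called, against 0% of the 543 rows of that table. The sum removes the division of reads among the summed copies, but not with any copy among the rows without a match. U6 differed by -0.07 ± 0.36 (SE, log2 scale, adjusted p = 0.997 by edgeR). The Pol II families U1 and U2 differed by -0.09 ± 0.40 and 0.14 ± 0.40, and U5 by -0.25 ± 0.37. U12 differed by -0.27 ± 0.31 and U7 by -0.49 ± 0.33, the largest of the 6 in size. The signs for U1 and U6 turned when libraries were scaled by their totals, to 0.07 and 0.14.

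**Figure D2:**
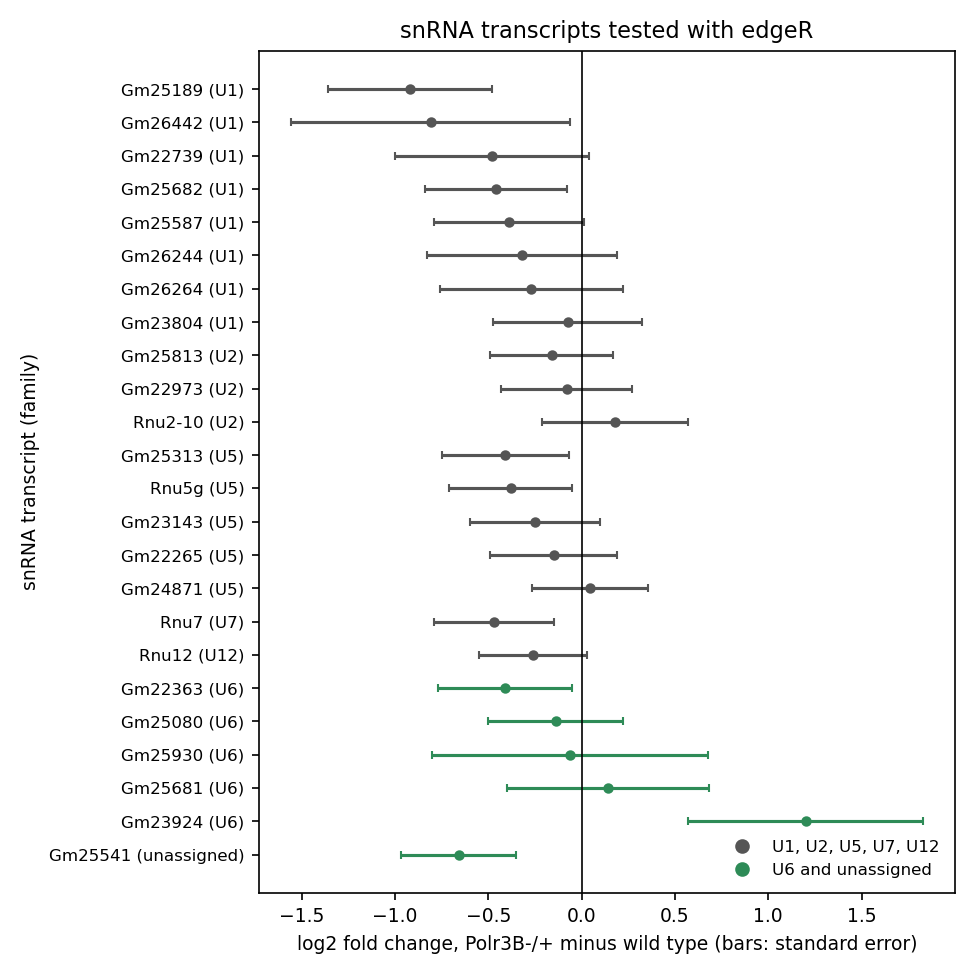
Log2 fold changes of the 24 snRNA transcripts tested with edgeR, *Polr3B*-/+ minus wild type, with standard errors, grouped by family. Most points lie below 0, from -0.92 for Gm25189 to 1.20 for Gm23924, and none passed 10% FDR.

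U5, shared by both spliceosomes, is encoded in the mouse by several variant genes, and 5 of the 7 U5 rows were abundant enough to test. Rnu5g and Gm25313 lie in introns of Parp16, on the opposite strand to it. Gm24871 overlaps an exon of the antisense-type gene B930036N10Rik on the same strand, so that reads of both cannot be told apart, Gm23143 is intergenic, and Gm22265 lies in an intron of Hhat on the opposite strand. As levels, no variant stood apart between genotypes. Rnu5g had 2242, 1810 and 1925 CPM in *Polr3B*-/+ males and 1926, 2703 and 3165 in wild-type males, a log2 fold change of -0.38 ± 0.33 (SE). Gm24871 had 2539, 1924 and 2380 CPM against 1809, 2281 and 2545, a log2 fold change of 0.04 ± 0.31. Both pairs of ranges overlapped. Gm25313 and Gm23143 differed by -0.41 ± 0.34 and -0.25 ± 0.35, and Gm22265, the least abundant, by -0.15 ± 0.34.

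The make-up of U5 was steadier between mice than its level, and does not move with the scaling of a library. These shares were computed after the values had been seen. Gm24871 made up 29.9%, 28.9% and 29.7% of the counts of the 5 variants in *Polr3B*-/+ males and 26.2%, 25.4% and 22.3% in wild-type males. The ranges did not overlap, and the means differed by 4.84 percentage points (29.5% ± 0.552 against 24.6% ± 2.09, SD, n = 3 each). Gm25313 was lower in every *Polr3B*-/+ male, with 18.2%, 18.9% and 18.8% against 20.5%, 19.8% and 22.1%, a difference of -2.18 points. Rnu5g had 26.4%, 27.1% and 24.1% against 27.9%, 30.2% and 27.7%, a difference of -2.74 points with ranges also apart. Gm23143 (23.9% ± 1.09 against 24% ± 1.5) and Gm22265 (2.13% ± 0.250 against 1.96% ± 0.238) overlapped. The widest 95% Wilson interval of any share was 1.57 points. Each of the 3 separated shares gave p = 0.1 in an exact two-sided permutation test over the 6 mice. This is the smallest p that 3 against 3 allows, and it became 0.167 after Benjamini-Hochberg adjustment over the 5 variants. Ranges that lie apart always give the smallest p, so that the test could not reach 0.05 and adds nothing to the separation. Shares of 1 total are tied to each other, so a higher share of 1 variant lowers the rest. As a background, the count ratio of 2 tested snRNA rows separated the genotypes in 50 of 276 pairs, or 18.1%. These pairs include those among the U5 variants, and a ratio of 2 rows is another measure than a share of 5. Salmon divides the reads of shared stretches between the variants by estimate, and the part of this step was not tested.

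**Figure D3:**
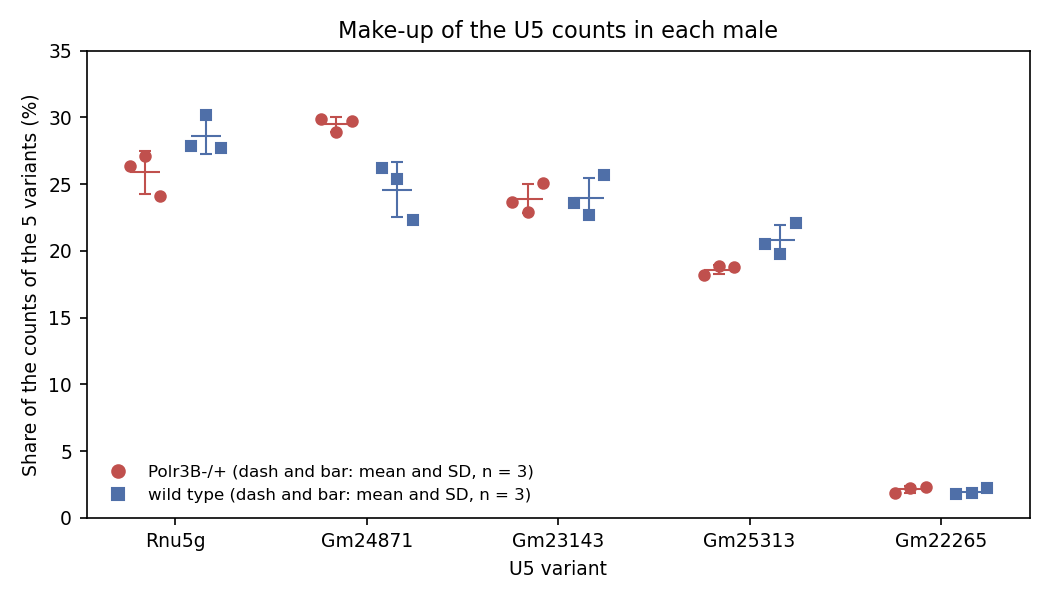
Share of each U5 variant in the counts of the 5 variants tested, in percent, for each male (circles, *Polr3B*-/+; squares, wild type; dash and bar, mean and SD, n = 3). Gm24871 is higher in all 3 *Polr3B*-/+ males (28.9% to 29.9%) than in any wild-type male (22.3% to 26.2%), while Gm25313 and Rnu5g are lower.

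U2 was nearly all Rnu2-10, which had 5811, 3264 and 4942 CPM in *Polr3B*-/+ and 2864, 4929 and 4568 CPM in wild-type males. The ranges overlapped widely, and the log2 fold change was 0.18 ± 0.39 (SE). A second U2 copy, Gm22973 (chr12:59040335-59040525, plus strand, intergenic), carries 9 substitutions against Rnu2-10 and keeps the branch point bases. It had 536, 345 and 502 CPM against 334, 614 and 514, a log2 fold change of -0.08 ± 0.35. Its share of the counts of the 2 rows, also computed after the values were seen, was 8.44%, 9.57% and 9.21% in *Polr3B*-/+ and 10.4%, 11.1% and 10.1% in wild-type males, lower in every *Polr3B*-/+ male (exact two-sided permutation p = 0.1, the smallest possible). Gm25813, which differs from Rnu2-10 by the substitutions C78T and G131C (counted from its 5′ end), had 9.99 to 13.8 CPM against 11.5 to 14.1, a log2 fold change of -0.16 ± 0.33.

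Among RNAs of the minor spliceosome, Rnu12 (chr15:83149644-83149794, plus strand, intergenic), which recognises the branch point of the rarer introns, had 706.5, 533.1 and 657.7 CPM in *Polr3B*-/+ and 624.6, 824.7 and 825.3 CPM in wild-type males. It differed by -0.26 ± 0.29 (SE, log2 scale), with overlapping ranges. Rnu11 (chr4:132270080-132270213, minus strand), which recognises their 5′ splice site, overlaps an exon of the lincRNA gene Gm28872 on the opposite strand. Capitals mark the Sm sites of both.
Rnu12: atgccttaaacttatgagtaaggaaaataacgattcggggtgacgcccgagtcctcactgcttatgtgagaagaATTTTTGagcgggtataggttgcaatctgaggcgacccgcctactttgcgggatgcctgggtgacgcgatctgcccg
Rnu11: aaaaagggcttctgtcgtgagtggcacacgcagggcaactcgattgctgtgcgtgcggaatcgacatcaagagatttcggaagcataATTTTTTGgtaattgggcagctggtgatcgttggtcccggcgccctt

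A pair of rows that the assignment left without a family, Gm25541 (chr2:27539805-27539930, minus strand, intergenic) and Gm22710 (chr1:118459141-118459265, minus strand), are shown because the largest difference of an abundant snRNA and an all-or-nothing pattern fell on them. Gm22710 lies in an intron of Clasp1 on the opposite strand and overlaps an exon of the antisense gene 2900060B14Rik. From general knowledge, the letters of Gm25541 are those of U6atac, a Pol III product, and those of Gm22710 are those of U4atac, its Pol II partner. No sequence named so was at hand, so these names were not tested, and they were recognised after the values were seen. Capitals mark the longest stretch of bases in the first 40 of Gm22710 that is complementary to Gm25541, which is 8 bases long. U4atac and U6atac are known to pair with each other before splicing.
Gm22710: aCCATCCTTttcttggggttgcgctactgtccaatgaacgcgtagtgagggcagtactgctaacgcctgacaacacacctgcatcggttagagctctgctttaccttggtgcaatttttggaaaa
Gm25541: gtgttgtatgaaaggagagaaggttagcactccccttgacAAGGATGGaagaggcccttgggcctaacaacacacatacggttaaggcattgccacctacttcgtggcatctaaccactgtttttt

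Gm25541 had 77, 57 and 79.7 CPM in *Polr3B*-/+ males and 83.2, 130 and 124 CPM in wild-type males. Every *Polr3B*-/+ male was below every wild-type male, by a narrow margin from wild type 1. The log2 fold change was -0.66 ± 0.31 (SE, edgeR unadjusted p = 0.0708, adjusted p = 0.999), so that it was not called. It was 1 of 2 tested snRNAs whose ranges lay apart with the *Polr3B*-/+ males lower, against 4.11% of all transcripts, and 0 lay apart in the other direction, against 2.14%. Relative to Rnu12, which is made by Pol II, a ratio that needs no scaling between libraries, Gm25541 had 0.109, 0.107 and 0.121 counts per count in *Polr3B*-/+ and 0.133, 0.157 and 0.150 in wild-type males. The means were 0.112 ± 0.00775 and 0.147 ± 0.0123 (SD, n = 3 each), and the ranges were apart (exact two-sided permutation p = 0.1, the smallest possible). This ratio was chosen after the values were seen and is 1 of the 276 pairs above. Rnu12 itself stood lower relative to U2 in every *Polr3B*-/+ male, with 11.1, 14.7 and 12.1 counts per 100 U2 counts against 19.5, 14.8 and 16.2. The margin between *Polr3B*-/+ 2 and wild type 2 was narrow, and this ratio was also not set in advance. The ratios of U2 to U1, U5 to U1, U5 to U2 and U7 to U1 overlapped between the genotypes. Relative to the U6 copies, Gm25541 had 0.672, 1.09 and 1.06 counts per count in *Polr3B*-/+ and 1.09, 1.4 and 1.48 in wild-type males. The ranges met only at 1.09, in *Polr3B*-/+ 2 and wild type 1 (means 0.939 ± 0.232 and 1.32 ± 0.206, SD).

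**Figure D4:**
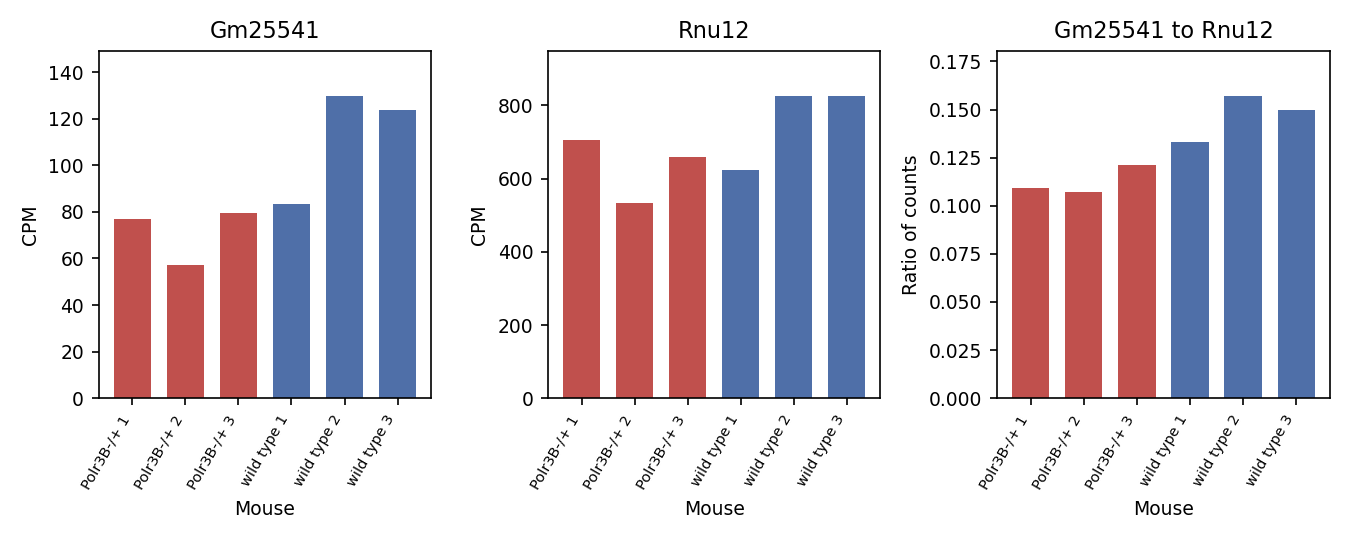
Levels of Gm25541 and Rnu12 in CPM, and the ratio of their counts, in each male (red bars, *Polr3B*-/+; blue bars, wild type; each bar is 1 mouse). The ratio is 0.107 to 0.121 in *Polr3B*-/+ and 0.133 to 0.157 in wild-type males, while the Rnu12 levels overlap.

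Rnu11 and Gm22710 were counted in the same 2 mice, 1 of each genotype, and in no other. Rnu11 had 513, 0 and 0 counts in *Polr3B*-/+ and 433, 0 and 0 in wild-type males, or 97.1 CPM in *Polr3B*-/+ 1 and 237 CPM in wild type 1. Gm22710 had 984, 0 and 0 against 282, 0 and 0 counts, or 186 and 154 CPM. Under counting error alone, a count of 0 in the other 4 libraries allows at most 0.497 to 1.25 CPM of the library total (3 counts). Where the estimation step itself sets a count to 0, this is no limit on the RNA. Of these libraries *Polr3B*-/+ 1 was the largest of its genotype and wild type 1 the smallest. Of the 1630 rows of the table, 9 had at least 20 counts in each of these 2 libraries and at most 2 in any other, among them 4 snoRNAs and 2 tRNAs, whereas no other pair of libraries had more than 1 such row. No comparison between genotypes was drawn from these rows, and the cause was not tested.

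U7 was the single row Rnu7 (chr6:124741225-124741286, minus strand), which overlaps an exon of Grcc10 on the same strand, so that their reads cannot be told apart. It had 473, 453 and 370 CPM in *Polr3B*-/+ and 450, 577 and 768 CPM in wild-type males. The ranges overlapped only through wild type 1, and the log2 fold change was -0.47 ± 0.32 (SE, edgeR unadjusted p = 0.181, adjusted p = 0.999).

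For U6, the Pol III product, the sequence of the reference gene Rnu6 is shared by 43 annotated genes, and none of them was among the rows matched here. The U6 rows were therefore variant copies, and the level of the common U6 sequence is not analysed here. The most abundant copies are intergenic.

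Gm22363, whose sequence is shared by 2 genes, held 48.2% of all U6 counts. It had 41.8, 20 and 40 CPM in *Polr3B*-/+ and 38.3, 49.8 and 47.2 CPM in wild-type males, a log2 fold change of -0.41 ± 0.36 (SE) with overlapping ranges. Gm25080 had 11.4, 9.99 and 15.9 CPM against 12, 16.9 and 12.2. Its log2 fold change was -0.14 ± 0.36. Gm23924 had 13.3, 5 and 6.18 CPM against 2.19, 1.96 and 6.12. It had the largest log2 fold change of the 24 snRNAs, 1.20 ± 0.63 (edgeR unadjusted p = 0.0996, adjusted p = 0.999), with ranges that overlapped through *Polr3B*-/+ 2 and wild type 3. Without 1 mouse it lay between 0.63 and 1.97. The last 2 tested copies, Gm25930 in an intron of Aff4 on the same strand and Gm25681 in an intron of Ntng1 on the opposite strand, were at 2.19 to 8.76 CPM in all mice and differed by -0.06 ± 0.74 and 0.14 ± 0.54.

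Summed over the 61 copies, U6 had 606, 105 and 231 counts in *Polr3B*-/+ and 140, 379 and 576 counts in wild-type males. Per 1000 counts of the Pol II families this was 1.96, 1.12 and 1.42 against 1.92, 1.34 and 1.43, with means of 1.5 ± 0.429 and 1.56 ± 0.310 (SD, n = 3 each). The ranges overlapped almost fully. Gm23057 had 118 counts in *Polr3B*-/+ 1 and 0 in the other 5 mice, and without it the value for *Polr3B*-/+ 1 was 1.58. Of the 61 U6 rows, 30 ended in TTTT, the signal at which Pol III stops. Of the 1135 rows with a sequence, 42 or 3.70% ended so, and these include the U6 rows themselves. No row of the assigned Pol II families ended so. An Sm site written as ATTTTTG, ATTTTTTG or ATTTGTG was searched in the RNA strand only. It was found in 22 of 30 U1, 7 of 8 U2 and 6 of 7 U5 rows. So did 3 of 4 U11 and 2 of 2 U12 rows carry it, while the U7 row did not in this spelling. Among U6 rows 7 of 61 had it. Of all matched rows, 89 or 7.84% had it, and these include the snRNA rows just given, so that this share is no separate background. Rows were placed by name or by sequence likeness, so that shared letters follow in part from the assignment.

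U1 was 99.8% a single row, Gm23804. It had 42216, 35660 and 38268 CPM in *Polr3B*-/+ and 28525, 53444 and 40332 CPM in wild-type males, the 2 extremes both being wild type, and a log2 fold change of -0.07 ± 0.40 (SE). The other 7 tested U1 rows, at 0.651 to 38.5 CPM in any mouse, all had log2 fold changes below 0. Salmon divides the reads of shared stretches by estimate, so that these rows may hold reads of Gm23804, and this was not tested. Gm26244 differs from Gm23804 by 1 base. Gm25189, a copy with 6 substitutions, had 3.98, 4 and 2.93 CPM against 4.93, 8.33 and 7.14, a log2 fold change of -0.92 ± 0.44 (edgeR unadjusted p = 0.0751, adjusted p = 0.999). Each *Polr3B*-/+ male was below each wild-type male, which makes it the second snRNA with ranges apart. Gm25682, the most abundant of the 7, has T2G, C4A and T5A in the 5′ end that pairs with the splice site (counted from the 5′ end of Gm23804) and had 19.9, 24.5 and 15.9 CPM against 19.2, 38.5 and 24.8, differing by -0.46 ± 0.38. Gm22739 has T2G, C4G and A7G there and differed by -0.48 ± 0.52, and Gm26442 has A7C and differed by -0.81 ± 0.75, each in introns of protein-coding genes on the same strand (Ccdc170 and Veph1). The value of Gm26442 rests on few counts and moved to between -2.17 and -0.41 when 1 mouse was left out, the first without *Polr3B*-/+ 1. Gm26244, in an intron of Rock1 on the same strand, Gm25587 and Gm26264 had no substitution in that stretch and differed by -0.32 ± 0.51, -0.39 ± 0.40 and -0.27 ± 0.49. Of U1b, an embryonic form of U1 in the mouse, Rnu1b1 had 0 counts in 4 mice and 1 in each of wild type 2 and 3, and Gm22042, a copy 98.8% identical to it, had 8, 0 and 2 counts in *Polr3B*-/+ and 0, 8 and 42 in wild-type males. None of the 3 genes with the sequence of Rnu1b6 was among the matched rows, so that the level of U1b as a whole is not given here.

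Of the 126 snRNA rows that did not pass the filter, 102 had at most 10 counts over all libraries, and 4 had over 100 in any library. These 4 were Rnu11, Gm22710, Gm23057 and Gm25106, an unassigned row in an intron of Ikzf3 on the same strand that had 797 counts in wild type 3, 1 in *Polr3B*-/+ 1 and 0 in the others. Among the other 122, no row had more than 42 counts in a library. Over all 150, 32 rows had counts in every mouse and 49 in 1 mouse alone.

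RNAs that modify snRNAs were also taken as lists. Small Cajal body RNAs, which guide modification of the Pol II snRNAs, had 15 rows, of which 14 were tested. Of these, 8 were above and 6 below 0, with a median log2 fold change of 0.02 beside -0.05 for all transcripts, and 0 passed 10% FDR in either direction by edgeR (1 of 14 at an unadjusted p under 0.05, against 3.57% of all transcripts). That row was Gm25820, named after its values were seen, with 75.3, 81.9 and 84.6 CPM in *Polr3B*-/+ and 0, 8.58 and 13.4 CPM in wild-type males, a log2 fold change of 3.38 ± 0.96 (SE, edgeR adjusted p = 0.999). Its ranges lay apart, as did those of Gm25395 (44.3 to 48 against 22.9 to 37.7 CPM, log2 fold change 0.55 ± 0.30). Of all transcripts tested, 2.14% had ranges apart with the *Polr3B*-/+ males higher. Scarna8 and Gm23751, the most abundant by the mean over all 6 mice, differed by 0.22 ± 0.36 and -0.07 ± 0.32 (SE). Of 3 snoRNA rows that guide methylation of U6, all tested, 0 were called. Snord67 differed by 0.12 ± 0.31 and Snord8 by -0.33 ± 0.40. Pol III RNAs with promoters of the U6 type had 66 rows including the U6 copies, of which 8 were tested, 3 above and 5 below 0 with a median of -0.03, and 0 were called in either direction. Among them Rmrp, the RNA of RNase MRP, had 792, 792 and 891 CPM against 922, 1234 and 800 and differed by -0.26 ± 0.30. Rny3, a Y RNA, had 480, 976 and 704 CPM against 558, 608 and 406 and differed by 0.46 ± 0.36. Both overlapped between genotypes.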

How the data were processed

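Short RNA from the duodenum of 3 *Polr3B*-/+ and 3 wild-type males was sequenced as 1 library a mouse. The authors trimmed reads with Cutadapt 2.10 and deposited Salmon 0.13.2 estimated counts, as whole numbers, for transcripts under 300 bases of a GRCm39 index that covers all RNAs. Columns of the heterozygous mice could not be tied to single animals and are numbered by column. No further count column was present. GENCODE M21 (GRCm38) gave types, names, positions and sequences by transcript identifier without version, since no GRCm39 annotation was used here. Families were assigned by name or by blastn 2.17.0 (80% identity over 80% of the transcript).

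After filterByExpr (minimum count 10) and TMM scaling, the quasi-likelihood test of edgeR 4.0.16 (R 4.3.3) was applied, adjusting over all transcripts at 10% FDR. Standard errors are the fold change over the square root of F. CPM use TMM-scaled totals. DESeq2 1.42.0 and limma 3.58.1 were alternatives. The test was checked on simulated data. Named are all tested snRNAs and the most abundant row of each family, and of the other lists the 2 most abundant. Rows and lists were chosen with earlier results of these data known. P-values measure the spread between these mice. Libraries of a genotype differed far beyond sampling noise, so none was counted as a repeat. Intervals and limits from counts cover counting error only. The sequences of the U5 and U6 rows are not reported here.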

Additional observations from a re-analysis of the deposited data

How the results depend on the processing

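No snRNA passed 10% FDR under any of the 8 alternatives of scaling, filter, tool or a 5% FDR, or without any 1 mouse. Scaling by library totals turned the sign of U1 (0.07) and U6 (0.14) with copies summed, and of Gm23804 (0.07), Gm22973 (0.08), Gm25080 (0.01) and Gm25930 (0.03). DESeq2 turned Gm23804 (0.01). Leaving out 1 mouse gave log2 fold changes of -0.29 to 0.16 for U1, -0.06 to 0.36 for U2 and -0.42 to 0.17 for U6. Single rows whose sign turned ranged from -0.28 to 0.17 (Gm23804), -0.03 to 0.39 (Rnu2-10), -0.30 to 0.12 (Gm22973), -0.09 to 0.16 (Gm24871), -0.43 to 0.02 (Gm23143), -0.37 to 0.18 (Gm22265), -0.36 to 0.04 (Gm25080), -0.62 to 0.12 (Gm26264), -0.75 to 0.63 (Gm25930) and -0.20 to 0.43 (Gm25681). The cause was not tested. Gm25541 kept its sign, from -0.84 to -0.52. The difference in the Gm24871 share of U5 stayed between 3.66 and 5.63 points and that of the Gm25541 to Rnu12 ratio between -0.0413 and -0.0293, alternatives chosen after seeing the data. The heterozygous labels carry no replicate number. With the digits of the column names as a replicate block, chosen after seeing the data, 0 snRNAs passed and no sign turned (U6 -0.14, U1 -0.04, Gm26442 -1.23). Same-numbered mice did not deviate together (correlations of 0.000396, -0.111 and 0.0867 over 560 transcripts). With 3 mice a group, the standard errors limit what could be detected.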
